A study of Homo sapiens with 6 samples.

Results

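The transcriptome described here is that of unperturbed REH cells, an established human leukemia line of precursor B cells that carries the ETV6-RUNX1 gene fusion. It was taken from the 3 libraries of cells that received only the solvent DMSO for 24 h, out of 6 libraries in the series. The other 3 libraries came from cells given 25 µM of the CDC42 inhibitor ML141 and were not used. The 3 DMSO libraries are stated to come from independent experiments on the same line, which was cultured in RPMI medium with serum, so their spread is that of repeat cultures of 1 clonal line and not of patients. All 26485 entries of the deposited count table were examined. There DMSO replicate 1 is labelled DMSOCV and the other libraries DMSOReh1 and DMSOReh3. What this difference in label stands for was not established. There is 1 group, so no contrast was tested, and levels are given as means ± SD of 3 libraries.

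B cell precursors assemble their immunoglobulin genes by V(D)J recombination, in which the RAG1 and RAG2 proteins cut the DNA, end-joining proteins rejoin it and the polymerase TdT (DNTT) adds bases at the junctions. A rearranged heavy chain is then tested at the cell surface with the surrogate light chain, made of the VPREB1 and IGLL1 proteins, and with CD79A and CD79B, which pass the signal to the kinase SYK and the adaptor BLNK. The factors TCF3, EBF1 and PAX5 set up and hold this program, and the interleukin-7 receptor supports the growth of these cells.

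Totals were 8284299, 10319697 and 10837224 counts in DMSO replicates 1, 2 and 3. CPM, counts scaled to library size, was used to call a gene expressed, at a mean of at least 1 CPM. TPM, which divides counts by the exon length of the gene before scaling to a fixed total, was used for all comparisons between genes. Percentiles are those of mean TPM among 14761 entries with a count and a known length. A gene with no count in any of the 3 libraries could lie at up to 0.102 CPM, a limit of 3 counts over the summed total that covers counting error only. Levels are uncertain for ALDOA, ASNS, CCR6, CDC42, FGF11, GLS2, IL2RG, LDHB, NHEJ1, PTMA, RPL7A and TOP3B, which have under 50% of their 31-base stretches unique among annotated transcripts, and for CDK4 and TYMS, which share at least 50% of their exon bases with another entry.

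The libraries were close to each other but not identical. Among the 11086 expressed entries, Pearson's r of log2 CPM between pairs of libraries was 0.990 to 0.994, a description across genes. Between 69 and 158 expressed entries differed by more than 2-fold in a pair. The common biological coefficient of variation was 0.0683. GC content moved with the library: in the 10% of expressed entries with the highest GC content, the median log2 ratio to the mean of the other libraries was -0.27 in replicate 1, -0.02 in replicate 2 and 0.27 in replicate 3. Replicate 1 is thus the low library and replicate 3 the high library for GC-rich transcripts, and the order is opposite, though smaller, in the GC-poorest 10% (0.10, -0.04 and -0.07). The part of GC content in the spread of single genes below was not tested.

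**Figure D1:**
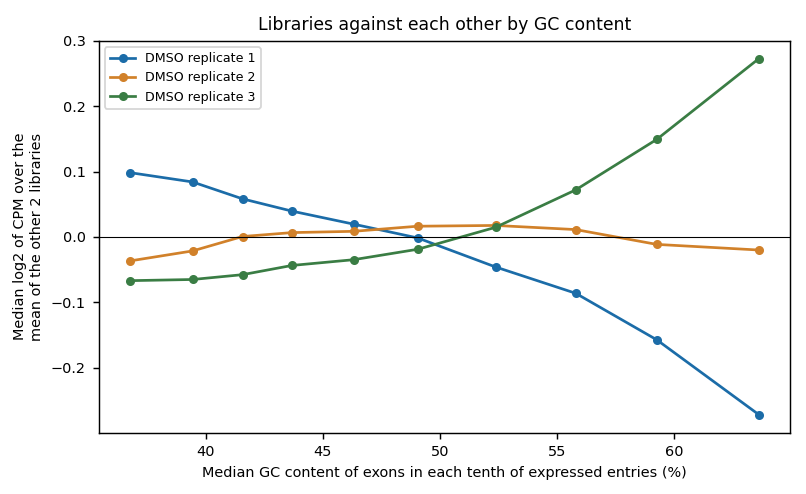
Median log2 ratio of CPM in each DMSO library to the mean of the other libraries (y axis), over expressed entries split into 10 groups of equal size by exon GC content (x axis, percent). Replicates 1 and 3 part at high GC, at -0.27 and 0.27, while replicate 2 stays within 0.04 of 0.

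Of all entries 11086 were expressed (41.9%), 4323 had some counts but less than 1 CPM, and 11076 had no count. Among the 19063 protein-coding entries 10328 were expressed (54.2%) and 6030 had no count (31.6%), and these are the shares against which the gene lists below are read. By contrast 110 of 1123 lincRNA entries and 10 of 1879 miRNA entries were expressed; the kit enriches polyadenylated RNA, so mature miRNAs were not measured. Expression was spread over many genes: 704 entries held 50% of all TPM, the 10 highest held 4.82% ± 0.133, and the 100 highest held 22.6% ± 0.239 (SD, n = 3).

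Among the 15 entries with the highest mean TPM were ACTB, ACTG1, GAPDH, RPS27, RPL7A, RPL5, PTMA, RPS12, RPL19, DNTT, HSPA8, EEF1A1, HSP90AA1 and HSP90AB1. They are the cytoplasmic actins, ribosomal proteins, a glycolytic enzyme, a translation factor, chaperones and PTMA, an acidic nuclear protein, all common to growing cells. The 1 lineage-restricted gene among them was DNTT at rank 11. ACTB led with 7373 TPM and lay 1.40 ± 0.0791-fold above ACTG1 (SD, n = 3). Cytosolic ribosomal proteins together made up 11.8% ± 0.411 of TPM, with 77 of 82 entries expressed. Without length scaling, EEF1A1 led with 5643 CPM, and TOP2B, a DNA topoisomerase, came next after ACTB and HSP90AA1 with 3909 CPM.

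The V(D)J recombination list joins DNTT, RAG1 and RAG2 with DNA-bending and end-joining genes that are not restricted to lymphocytes. Its share of expressed genes is therefore not a measure of lineage. All 12 genes of the V(D)J recombination list were expressed, against 54.2% of protein-coding entries, and 8 of them lay at a percentile of 90 or more. DNTT stood at 3956, 3693 and 3754 TPM in replicates 1, 2 and 3 (3801 ± 138, percentile 99.9), a narrow range. RAG1 stood at 890, 837 and 789 TPM (839 ± 50.5) and RAG2 at 253, 218 and 234 TPM (235 ± 17.6). No library of RAG2 reached the lowest of RAG1, and the ratio of RAG1 to RAG2 was 3.58 ± 0.235 in TPM (SD, n = 3). DNTT was 4.54 ± 0.190-fold above RAG1 on the same scale.

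The proteins that bend and rejoin the DNA were less uniform. HMGB2, a DNA-bending cofactor of the RAG proteins, had 1543 ± 103 TPM, and XRCC5 and XRCC6, which form the Ku dimer on broken ends, had 1220 and 876 TPM. PRKDC, the kinase recruited by Ku, had 251 TPM. The ligation step was lower: LIG4, the ligase, had 36.9 ± 2.92 TPM, XRCC4, its partner, 58.8 TPM, and NHEJ1, which aligns ends, 33.2 TPM. DCLRE1C (Artemis), the nuclease that opens hairpin ends, was the lowest of the list at 25.9 TPM, percentile 57.9.

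Of the 20 genes of the precursor B receptor and its proximal signalling 18 were expressed. IGLL1, the lambda-like chain of the surrogate light chain, stood at 591, 625 and 772 TPM (663 ± 96.5, percentile 98.8), highest in replicate 3. CD79A, a signalling chain, stood at 538, 574 and 674 TPM (595 ± 70.3), and its partner CD79B at 612, 500 and 583 TPM (565 ± 58.6). These 2 chains overlapped between libraries, with a ratio of 1.06 ± 0.157. VPREB3, a relative of VPREB1 that binds nascent immunoglobulin chains, stood at 292, 254 and 350 TPM (299 ± 48.6), below every library of IGLL1. VPREB1 itself and IGLL5 had no count in any library.

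Downstream, PIK3AP1, which links the receptor to phosphoinositide 3-kinase, was the highest with 690, 652 and 658 TPM (667 ± 20.1). The adaptor BLNK had 551 ± 42.2 TPM, the kinase SYK 307 ± 7.05 TPM and the kinase BTK 174 ± 1.74 TPM. SYK was 1.77 ± 0.0562-fold above BTK in TPM, with no overlap between libraries. The SRC-family kinases were lower: FYN had 58.4 ± 3.79, BLK 36.1 ± 2.53 and LYN 20.1 ± 1.56 TPM, an order without overlap between libraries. The inhibitory phosphatases INPP5D and PTPN6 were present at 82.6 and 73.2 TPM.

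The upstream sequences of DNTT, IGLL1, VPREB3 and VPREB1 are shown because these genes mark precursor B cells and differ in level. The first 3 lie at a percentile of 90 or more, and VPREB1 had no count. Each is the 250 bases before the start of transcription given by RefSeq on GRCh38.p14, written 5′ to 3′ on the strand of the gene. DNTT lies at chr10:96304184-96304433 (plus strand), IGLL1 at chr22:23580291-23580540 (minus strand), VPREB3 at chr22:23754426-23754675 (minus strand) and VPREB1 at chr22:22244536-22244785 (plus strand). Capitals mark matches on either strand to the E-box CAGGTG, a motif of TCF3-type proteins, and to TGTGGT, a motif of RUNX factors.
DNTT: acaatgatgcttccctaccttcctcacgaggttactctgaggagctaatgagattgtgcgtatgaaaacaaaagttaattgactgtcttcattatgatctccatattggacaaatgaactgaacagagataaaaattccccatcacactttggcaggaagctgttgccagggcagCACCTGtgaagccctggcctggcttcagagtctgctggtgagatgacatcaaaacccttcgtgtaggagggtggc
IGLL1: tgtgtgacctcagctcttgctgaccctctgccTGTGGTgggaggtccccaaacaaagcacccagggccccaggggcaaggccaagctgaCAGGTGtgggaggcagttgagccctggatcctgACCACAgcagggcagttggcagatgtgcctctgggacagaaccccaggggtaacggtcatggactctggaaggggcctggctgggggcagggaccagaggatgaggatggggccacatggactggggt
VPREB3: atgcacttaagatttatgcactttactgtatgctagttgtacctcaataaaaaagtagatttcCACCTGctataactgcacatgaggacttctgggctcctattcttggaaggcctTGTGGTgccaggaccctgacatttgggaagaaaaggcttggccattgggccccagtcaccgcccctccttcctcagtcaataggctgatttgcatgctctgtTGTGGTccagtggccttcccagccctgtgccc
VPREB1: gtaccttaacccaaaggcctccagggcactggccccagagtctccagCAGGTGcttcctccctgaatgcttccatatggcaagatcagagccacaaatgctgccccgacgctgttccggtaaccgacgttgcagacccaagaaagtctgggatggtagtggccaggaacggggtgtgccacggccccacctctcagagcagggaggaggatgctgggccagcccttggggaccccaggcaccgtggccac
Each of the 4 windows held 1 E-box match, IGLL1 and VPREB3 held 2 RUNX-type matches each, and DNTT and VPREB1 held none. The window of RAG1, not printed, held neither motif, and that of CD79A, also not printed, held 1 match to each. An EBF-type motif was searched as well and had no match in any of these 6 windows. Over 34943 upstream windows of the same length, 17.5% held the E-box, 10.99% the RUNX-type motif and 1.06% the EBF-type motif. A match is a description of letters, not a site of binding, and VPREB1 at 0 and DNTT at rank 11 held the same motif count. For VPREB1 loss of the DNA cannot be told apart from lack of transcription, so the pair does not compare motifs with level.

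B lineage transcription factors were nearly all present: 29 of 33 were expressed, 12 at a percentile of 90 or more, and none was without a count. LEF1, a factor of early lymphocytes, stood at 640, 623 and 612 TPM (625 ± 14.4). ELF1, an ETS factor, had 636 ± 47.6 TPM, and its libraries overlapped those of LEF1. MYB, needed by blood progenitors, stood at 604, 488 and 524 TPM (539 ± 59.1), the first library highest.

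PAX5, which commits cells to the B lineage, stood at 271, 252 and 256 TPM (260 ± 10.3). EBF1 stood at 268, 246 and 243 TPM (252 ± 13.4) and overlapped PAX5, with a PAX5 to EBF1 ratio of 1.03 ± 0.0215. TCF3, the E protein above them, stood at 204, 220 and 254 TPM (226 ± 25.2), and was 4.70 ± 0.976-fold above its relative TCF4. IKZF1 (Ikaros) had 150 ± 5.34 TPM, while its relative IKZF3, which rises in later B cells, had 10 counts in all.

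Other members of the list were lower. SPI1, a factor of myeloid and early B cells, had 34.4 ± 5.83 TPM. SOX11, a neural factor, had 27.6 ± 3.18 TPM, percentile 59.1. TCF7, the T cell relative of LEF1, had 5 counts in all, IRF8 had 3, and IRF4, a factor of pre-B and plasma cells, had 1.53 TPM.

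The genes of the fusion were far apart. RUNX1 stood at 107, 98.95 and 98.2 TPM (101 ± 5.10, percentile 85.2). ETV6 stood at 1.89, 2.36 and 2.47 TPM (2.24 ± 0.310, percentile 28.4), from 121 counts in all. The ratio of RUNX1 to ETV6 was 46.2 ± 9.35 in TPM. Counts are summed per gene, so reads from the fusion transcript and from an unrearranged copy cannot be told apart. CBFB, the partner protein of RUNX factors, had 279 ± 10.0 TPM, and RUNX2, RUNX3 and RUNX1T1 had 9, 2 and 0 counts. ETV7, the nearest relative of ETV6, had 9.13 ± 1.53 TPM. CDC42, the small GTPase that the series set out to inhibit, had 263 ± 3.62 TPM in these untreated cells (percentile 95.2), but 8.38% of its 31-base stretches are unique, so reads may be shared with related sequences.

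Surface antigens used to type precursor B leukemia matched the label of the line in most cases, 16 of 20 expressed. CD74, the class II invariant chain, stood at 1519, 1452 and 1689 TPM (1553 ± 123). CD24 stood at 1015, 896 and 850 TPM (920 ± 85.5), and MME, the CD10 antigen, at 314, 221 and 267 TPM (267 ± 46.3). CD24 lay above MME in every library, by 3.49 ± 0.486-fold. CD22 had 128 ± 6.30 and CD38 36.2 ± 3.03 TPM. PTPRC, the CD45 antigen, had 129 ± 11.1 TPM. The stem cell antigen CD34 and the adhesion receptor CD44 had 1 count each, and CD9 had 0.94 ± 0.448 CPM, under the threshold.

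Genes of later B cells were mostly low. In the list of 20 later-stage B cell genes 5 were expressed, 8 had traces and 7 had no count, including the complement receptor CR2 and TNFRSF17 (BCMA). MS4A1, the CD20 antigen, had 2 counts in all. The highest of the list was XBP1, a secretory factor, at 288 ± 11.4 TPM, and SDC1 (CD138), a plasma cell marker, had 6.21 ± 1.31 TPM.

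Markers of cell types other than B cells were few. Of 20 T cell genes 2 were expressed, and the list summed to 28.0 to 32.3 CPM per library. These 2 were LCK (10.8 ± 1.21 TPM) and BCL11B (8.43 ± 0.568 TPM), while CD3D, CD3G, CD2, CD5 and CD7 had no count. None of 11 NK cell genes was expressed, with a sum of 0.823 to 1.22 CPM. Of 18 myeloid genes 3 were expressed and summed with the rest to 46.8 to 48.4 CPM. In TPM, MPO, the peroxidase of granules, made up most of the list at 39.9, 40.3 and 40.0 TPM (40.1 ± 0.190). By contrast ELANE, AZU1, PRTN3, CD33 and CEBPA had no count. CSF1R had 2.53 ± 0.674 TPM. Of 17 erythroid and megakaryocyte genes 1 was expressed, TFRC, the transferrin receptor of any dividing cell, at 427 ± 34.4 TPM, and GATA1 and HBB had no count. Of 14 stromal, endothelial and epithelial genes 1 was expressed, COL1A1 at 0.91 ± 0.0504 TPM.

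**Figure D2:**
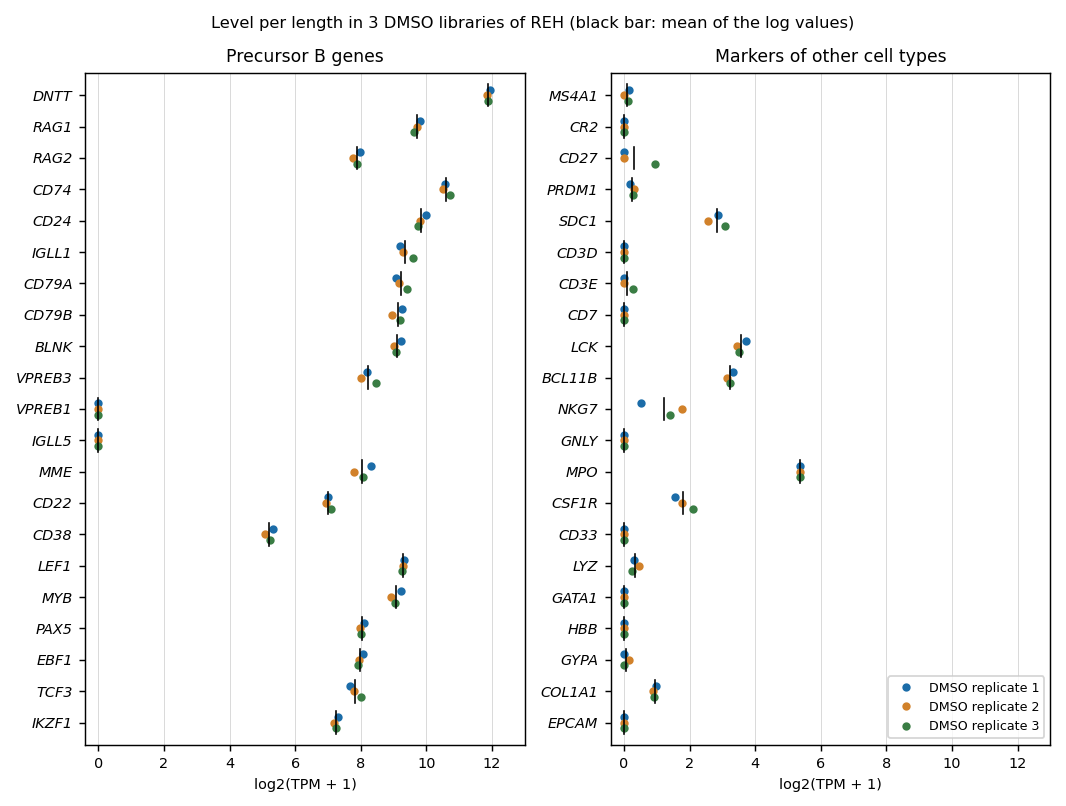
Level per length, log2(TPM + 1), of precursor B genes (left) and of markers of other cell types (right) in DMSO replicates 1, 2 and 3 (points) with the mean of the log values (black bar). DNTT lies highest, at 3693 to 3956 TPM, VPREB1 and IGLL5 lie at 0, and among the markers plotted on the right MPO lies highest at 39.9 to 40.3 TPM.

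Of 37 cytokine and growth factor receptor genes of blood cells 23 were expressed, against 54.2% of protein-coding entries. IL7R, the receptor chain for interleukin-7, stood at 1214, 952 and 934 TPM (1033 ± 157, percentile 99.3), with replicate 1 above the other libraries. Its partner IL2RG had 220 ± 11.1 TPM, and the ratio of IL7R to IL2RG was 4.67 ± 0.479. FLT3, a kinase receptor of progenitors, had 132 ± 16.6 TPM, and TGFBR2, a TGF-beta receptor, had 132 ± 9.93 TPM. EPOR, the erythropoietin receptor, stood at 3.70, 5.26 and 4.94 TPM (4.63 ± 0.821, percentile 34.4), and KIT had 2.39 ± 0.752 TPM. IL2RA and LIFR had no count, and 3 of the 8 receptors without a count, IL3RA, CSF2RA and CRLF2, lie on both sex chromosomes in a block without any expressed gene, described with the silent genes.

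CXCR4, the receptor that holds precursors in marrow, was the 1 expressed gene of 22 chemokine receptors, at 495, 440 and 447 TPM (461 ± 29.7). The other members summed to few counts: CCR1 had 14, CCR6 had 11 and CCR7 had 3 counts in all, and 11 of the list had none. Of 27 integrin and selectin genes 8 were expressed. ITGA4, the alpha chain of VLA-4, led with 452, 420 and 398 TPM (423 ± 27.2), and its partner ITGB1 had 99.7 ± 10.2 TPM. ITGA5 had 28.6 ± 3.71 TPM, and ITGA4 exceeded it 14.96 ± 1.98-fold. The leukocyte integrin chains ITGAL and ITGB2 were low, with 7 counts in all and 2.02 TPM.

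Of 51 receptor tyrosine kinases 16 were expressed, 14 had traces and 21 had no count. The insulin receptor INSR led with 129, 126 and 132 TPM (129 ± 3.21), and lay 6.30 ± 0.872-fold above IGF1R, which had 20.8 ± 3.05 TPM. EPHB4, an ephrin receptor, had 78.9 ± 6.62 TPM, and PDGFRB had 22.5 ± 1.54 TPM, percentile 55.1, while PDGFRA had no count. EGFR, AXL, ALK and ROR1 also had none. Of 48 nuclear receptors 21 were expressed. RXRA, a common partner, had 51.0 ± 4.07 TPM and the glucocorticoid receptor NR3C1 had 27.7, 28.9 and 29.01 TPM (28.6 ± 0.721, percentile 59.9). VDR and PPARG had no count. In the Toll-like receptor list 8 of 13 genes were expressed, led by the adaptor MYD88 at 35.4 ± 2.34 TPM, and the receptors TLR4 and TLR8 had no count.

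**Figure D3:**
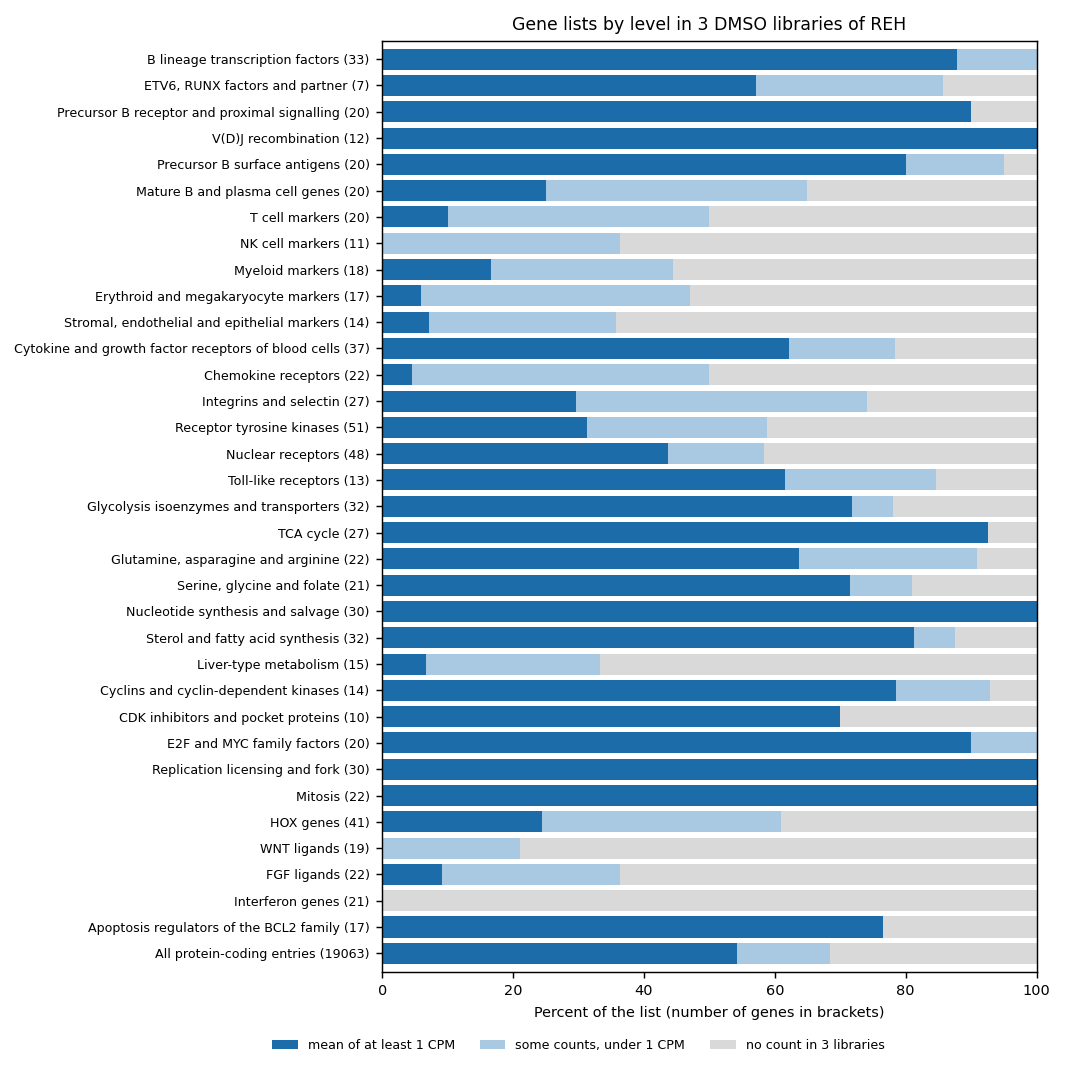
Share of each gene list (x axis, percent; number of genes in brackets) that was expressed at a mean of at least 1 CPM, had some counts below it, or had no count in the 3 DMSO libraries. V(D)J recombination, nucleotide synthesis, replication and mitosis were expressed in full, NK cell, WNT and interferon genes not at all, and 54.2% of all protein-coding entries were expressed.

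Central carbon genes were abundant. Of 32 glycolysis isoenzyme and transporter genes 23 were expressed, 10 of them at a percentile of 90 or more, and the list held 1.44% to 1.54% of TPM per library. GAPDH stood at 4271, 4908 and 4796 TPM (4659 ± 340). LDHB, the lactate dehydrogenase chain of oxidative tissue, stood at 3364, 3306 and 3224 TPM (3298 ± 70.5), and LDHA, the chain of glycolytic tissue, at 1113, 1207 and 1109 TPM (1143 ± 55.5). LDHB thus lay above LDHA in each library, by 2.89 ± 0.142-fold in TPM (SD, n = 3). LDHB has 42.1% of its 31-base stretches unique, so its level is uncertain.

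The hexokinase and phosphofructokinase steps had several isoenzymes at like levels. HK2 had 78.8 ± 4.86 and HK1 66.8 ± 3.92 TPM, a ratio of 1.18 ± 0.101. PFKP, PFKM and PFKL had 159, 122 and 106 TPM. For enolase, aldolase and lactate transport 1 form was far above the other: ENO1 had 2351 ± 55.5 TPM against 27.8 for ENO2, and ALDOA had 458 TPM against 11.1 for ALDOC. The lactate transporter SLC16A1 had 280 ± 28.8 TPM and SLC16A3 3.23 TPM, a ratio of 88.0 ± 18.0. The liver and germ cell forms PKLR, SLC2A2, PGK2 and LDHC had no count. Glucose uptake genes were modest: SLC2A1 had 31.1 ± 1.64 and SLC2A3 17.4 ± 2.26 TPM.

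**Figure D4:**
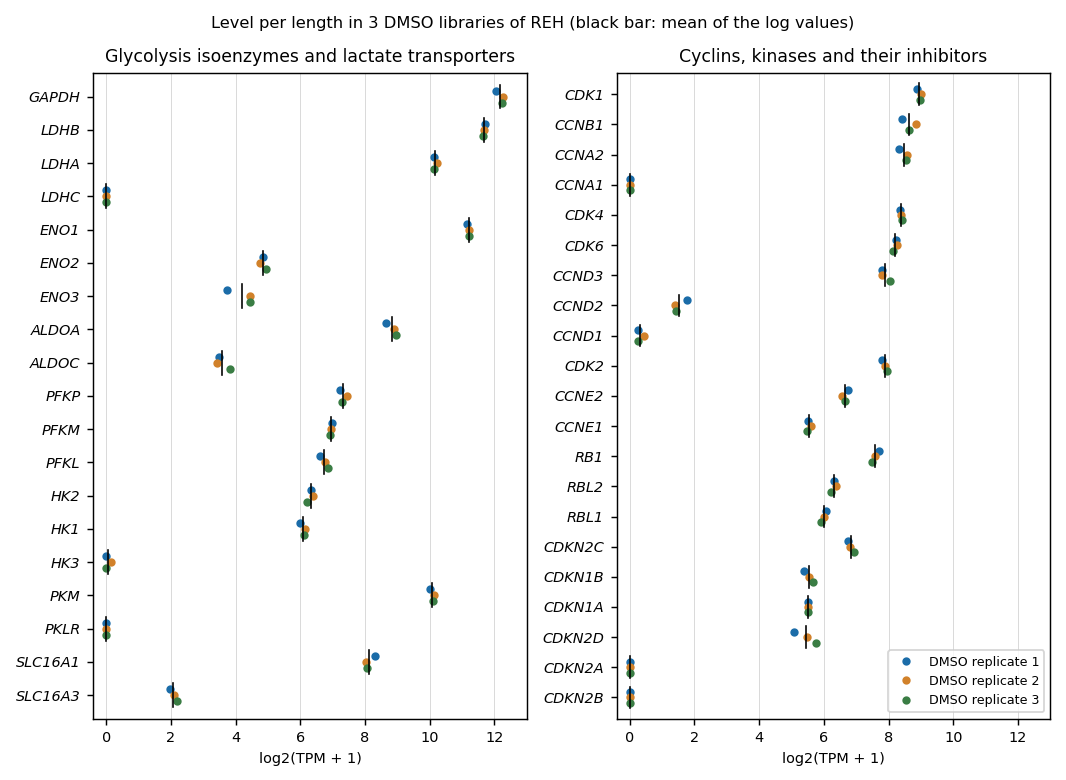
Level per length, log2(TPM + 1), of glycolysis isoenzymes and lactate transporters (left) and of cyclins, cyclin-dependent kinases and inhibitors (right) in DMSO replicates 1, 2 and 3 (points) with the mean of the log values (black bar). LDHB lies above LDHA in every library, CCND3 is the D-type cyclin with the highest level, and CDKN2A and CDKN2B lie at 0.

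In the TCA cycle 25 of 27 genes were expressed, and the 2 without a count, PDHA2 and OGDHL, are forms of testis and brain. MDH1, the cytosolic malate dehydrogenase, had 465 TPM and the citrate synthase CS had 369 ± 25.2 TPM. PC, which refills the cycle from pyruvate, was the lowest expressed member at 3.99 ± 0.758 TPM. IDH2, the mitochondrial isocitrate dehydrogenase, lay 2.15 ± 0.0849-fold above the cytosolic IDH1.

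Of 22 genes of glutamine, asparagine and arginine use 14 were expressed. The transporter SLC7A5 had 304 ± 10.8 TPM and the glutamine synthetase GLUL 253 TPM. ASNS, which makes asparagine and is of interest because asparaginase treats this leukemia, stood at 128, 110 and 92.6 TPM (110 ± 17.5), lowest in replicate 3. ASS1, which makes an arginine precursor, stood at 87.8, 35.7 and 35.3 TPM (52.95 ± 30.2). In CPM, replicate 1 was 2.47-fold above the lowest library, so the mean describes none of the libraries well. The catabolic enzymes ARG1 and ASPG had no count, and GLS2 had 1.

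The serine and folate list had 15 of 21 genes expressed. PHGDH, which starts serine synthesis, had 460 ± 24.0 TPM, and SHMT2, which splits serine in mitochondria, had 254 ± 10.0 TPM and exceeded the cytosolic SHMT1 2.78 ± 0.165-fold. GLDC, which breaks glycine down, had 1.67 ± 0.638 TPM. The folate receptors FOLR1 and FOLR3 had no count, while the reduced folate carrier SLC19A1, which also takes up methotrexate, had 22.1 TPM.

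All 30 genes of nucleotide synthesis and salvage were expressed, 12 at a percentile of 90 or more. TYMS, which makes thymidylate, stood at 1167, 1227 and 1251 TPM (1215 ± 43.0). ADA, adenosine deaminase, had 372 ± 20.4 TPM and RRM2, the ribonucleotide reductase subunit of dividing cells, 468 ± 33.9 TPM. RRM2B, its relative outside S phase, had 36.2 TPM. The lowest of the list were SAMHD1, which degrades deoxynucleotides, at 3.09 ± 0.340 TPM, and TK2, a mitochondrial kinase, at 6.90 TPM. HPRT1, the purine salvage enzyme, had 25.6 ± 1.03 TPM.

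Lipid synthesis had 26 of 32 genes expressed. HMGCS1, an early sterol enzyme, had 452 ± 24.0 TPM. ACLY had 443 ± 5.16 TPM, and FASN, a GC-rich gene, stood at 120, 144 and 181 TPM (148 ± 30.7), in the same order of libraries as GC-rich entries in general. The desaturase SCD had 4, 0 and 1 counts, whereas SCD5 had 57.3 ± 4.59 TPM. Liver-type genes had 1 of 15 expressed, PCK1 at 2.06 ± 0.0997 TPM.

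Genes of the dividing cell were expressed throughout. All 30 genes of replication licensing and the fork and all 22 of mitosis were expressed, and 14 and 17 of them lay at a percentile of 90 or more. PCNA, the sliding clamp, stood at 1492, 1300 and 1422 TPM (1405 ± 97.3), and MCM3, a helicase subunit, had 667 ± 22.6 TPM. MKI67, the marker of cycling cells, stood at 427, 556 and 494 TPM (492 ± 64.6), lowest in replicate 1. The mitosis list as a whole held 0.521%, 0.629% and 0.582% of TPM in replicates 1, 2 and 3. TOP2A and the Aurora kinase AURKB had 557 ± 47.1 and 230 ± 32.2 TPM, and both were also lowest in replicate 1. Whether replicate 1 held fewer cells in mitosis or less of these transcripts per cell cannot be told apart in bulk RNA.

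Of 14 cyclins and kinases 11 were expressed. CDK4 stood at 323, 332 and 340 TPM (332 ± 8.42) and CDK6 at 301, 305 and 281 TPM (296 ± 12.5), with no overlap and a CDK4 to CDK6 ratio of 1.12 ± 0.0731. In CPM, without length scaling, CDK6 was instead the higher, at 1047 against 208 CPM. CCND3 was the leading D-type cyclin at 223, 222 and 262 TPM (236 ± 22.7). CCND2 had 1.91 ± 0.446 TPM, and CCND1 had 10 counts in all. The E-type cyclins CCNE2 and CCNE1 had 99.7 ± 5.58 and 45.3 ± 2.27 TPM, and the germ cell cyclin CCNA1 had no count.

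Among inhibitors and pocket proteins 7 of 10 were expressed. RB1, which restrains E2F factors, had 192 ± 14.3 TPM. CDKN2C, a CDK4 and CDK6 inhibitor, had 113 ± 8.27 TPM and lay 2.49 ± 0.0681-fold above CDKN1B, with 45.4 TPM. CDKN1A, an inhibitor induced by DNA damage, had 44.4 ± 0.316 TPM. CDKN2A, CDKN2B and CDKN1C had no count. MYC had 297 ± 20.9 TPM, MYCL 10 and MYCN 2 counts in all. E2F1 had 112 ± 11.5 TPM, and its libraries overlapped those of E2F4, with 106 TPM.

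In the BCL2 family, which decides on survival, 13 of 17 genes were expressed. MCL1 led the survival members at 243 ± 7.25 TPM, 2.36 ± 0.248-fold above BCL2, which had 103 ± 8.69 TPM. With the longest transcript as length that ratio was 1.56. BCL2 and BCL2L1 overlapped in TPM, with 103 ± 3.15 for the latter, and their ratio of 1.00 became 1.44 with the longest transcript. The death genes BAX, BCL2L11 and BBC3 had 84.6, 27.8 and 3.57 TPM, and BCL2A1 and BIK had no count.

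An entry without a count is not always a silent gene, and several blocks of such entries held housekeeping genes. These blocks were picked out after their counts were seen. Of 18 protein-coding genes with identical copies on both sex chromosomes none was expressed and 16 had no count, among them SLC25A6, an ATP carrier, and CD99, IL3RA, CSF2RA and CRLF2. In the major histocompatibility complex (chromosome 6, 28903002 to 33409924 on GRCh38) 112 of 164 protein-coding entries had no count, against 31.6% of all, including the ribosomal gene RPS18, MRPS18B, RXRB, DDR1 and TAP1. In the leukocyte receptor complex (chromosome 19, 53909335 to 55071291) 34 of 43 had none, and the ribosomal gene RPS9 had 9 counts in all. In 17q12 (chromosome 17, 35918066 to 38192541) 31 of 36 had none and 3 were expressed. Of these 3, DDX52 had 10.0 CPM, and ACACA, which makes malonyl-CoA, had 1.27 CPM (0.38 ± 0.0981 TPM). In a stretch of 22q11.23 all 9 entries had none, among them MIF and SMARCB1, both with under 50% of their 31-base stretches unique in the annotation.

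Genes of these blocks with no or few counts are therefore given only as listed, and why they lack counts was not tested. EIF4A1, a translation factor with 0% of its 31-base stretches unique to it, and EIF3C, with 46.9%, were listed at 0 as well. Genes of the complex that did have counts included HLA-DRA at 128 ± 7.99 TPM, and outside the complex B2M, the class I light chain, had 114 ± 15.4 TPM.

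**Figure D5:**
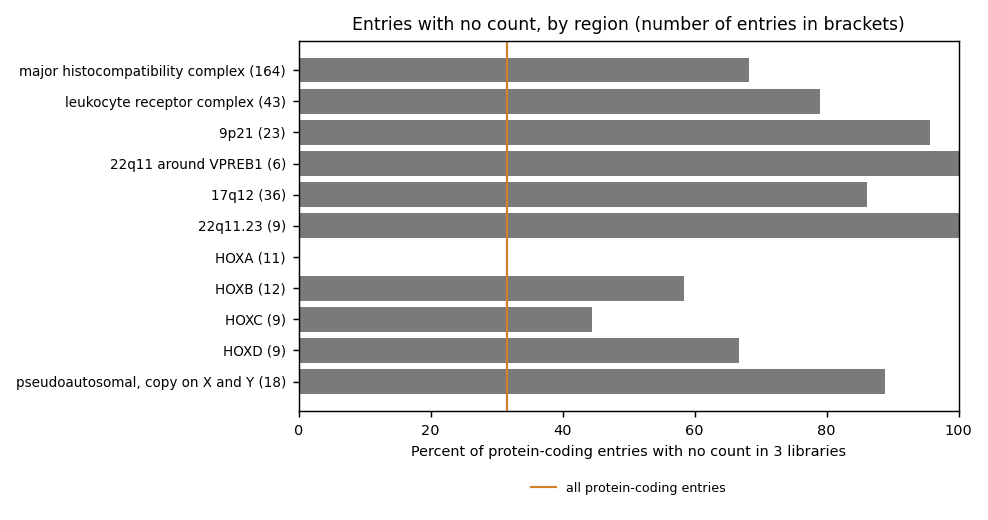
Percent of protein-coding entries with no count in the 3 DMSO libraries (x axis), by region, with the number of entries in brackets and the share over all protein-coding entries (31.6%) as a line. The 22q11 blocks and 9p21 lie at 95.7% to 100% and HOXA at 0%.

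On the short arm of chromosome 9, 22 of 23 protein-coding entries from FOCAD to DMRTA1 (chromosome 9, 20658309 to 22455740) had no count and 1, HACD4, had 1 count. They include CDKN2A and CDKN2B, the inhibitors of CDK4 and CDK6, MTAP, a methionine salvage enzyme that most cells express, KLHL9, and type I interferon genes. CDKN2A has 94.9% and MTAP 87.0% of its 31-base stretches unique. MLLT3, just outside at 20341665 to 20622543, had no count either. On the other side ELAVL2 had 1 count in all, and IZUMO3 and TUSC1, out to 25678440, had none. FOCAD and DMRTA1 are therefore not edges of the stretch without counts. Loss of the DNA and lack of transcription cannot be told apart from RNA counts.

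On chromosome 22 all 6 protein-coding entries from VPREB1 to IGLL5 (22244675 to 22896107) had no count. The neighbours on either side had counts, with TOP3B at 669, GNAZ at 21 and BCR at 3039 counts in all. This stretch holds the immunoglobulin lambda variable genes, which are themselves joined by deletion in B cells, and here too DNA loss cannot be told apart from lack of transcription. IGLL1 and VPREB3 lie beyond it, at 23573125 and 23752743, and had 663 and 299 TPM, both at a percentile of 90 or more.

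Several families of other tissues and of secreted signals had few or no counts. Of 399 olfactory receptor entries 388 had no count and 1, the pseudogene OR7E14P, was expressed at 1.09 ± 0.438 CPM. Of 94 keratin-associated proteins 91 had none and none was expressed, and the 38 beta-defensins and 18 late cornified envelope genes were all at 0, with 14 of the beta-defensins in shared sequence. Of 56 keratins 1 was expressed, KRT10 at 23.0 TPM. All 21 interferon genes had no count, 7 of them in shared sequence. The type I genes from IFNB1 to IFNE lie in the chromosome 9 block described above. For them, loss of the DNA and lack of transcription cannot be told apart. None of 19 WNT ligands was expressed, and 2 of 22 FGF ligands were, FGF9 at 4.50 and FGF11 at 2.15 TPM.

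Zero counts also lay side by side. There were 46 runs of at least 10 neighbouring autosomal protein-coding entries without a count, with 898 entries, or 15.99% of all such entries on autosomes, and 536 of them belonged to olfactory receptors, keratins, defensins and similar families. By contrast 408 of 529 entries named ZNF, mostly zinc finger factors, were expressed (77.1%), against 54.2% of all protein-coding entries. Of 334 solute carriers 156 were expressed (46.7%), below that share. Replication-dependent histones, whose messages lack a poly(A) tail, had 9 of 73 expressed, the highest being HIST1H1C at 4.56 ± 1.23 CPM.

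The HOX clusters differed from each other. In HOXA 8 of 11 protein-coding entries were expressed and none was without a count. HOXA5 led at 27.8, 19.8 and 21.7 TPM (23.1 ± 4.17), followed by HOXA13, a factor of limb and hindgut, at 18.4, 15.7 and 18.4 TPM (17.5 ± 1.55), with no overlap. In CPM, without length scaling, HOXA13 was instead the higher, at 26.6 against 11.5 CPM. HOXA9 and HOXA10, factors of blood progenitors, had 15 and 7 counts in all. Of the 12 entries of the HOXB region, which include the neighbours PRAC1 and PRAC2, the 1 expressed was PRAC2 at 4.35 CPM, and HOXB9 was the highest HOXB gene at 0.78 CPM. In HOXC 1 of 9 entries was expressed, HOXC4 at 6.31 CPM, and in HOXD none of 9. PRAC2 and HOXB9 were chosen after their values were seen. The HOX partner PBX3 had 34.2 ± 2.29 TPM and MEIS1 had 1 count.

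Promoter composition followed the level class. Of 17616 protein-coding entries outside shared or overlapping sequence, 14111 (80.1%) matched a RefSeq promoter window, again the 250 bases before the start. The ratio of observed to expected CG pairs had a median of 0.840 in 8256 expressed entries, 0.598 in 1884 entries with traces and 0.375 in 3971 entries without a count, and 0.879 at a percentile of 90 or more. Of the 6 windows of precursor B genes examined, 4 expressed genes had low ratios. DNTT had a ratio of 0.223, CD79A 0.156, VPREB3 0.0645 and IGLL1 0.0411, all below the median of entries without a count. RAG1, also expressed, had 0.820, near the median of expressed entries, and VPREB1, without a count, had 0.329. This is a description of single windows, with no test.

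The spread between libraries was small for most genes. Of 9507 entries with a mean of at least 5 CPM the median ratio of the highest to the lowest library was 1.14, 415 had a ratio above 1.5, and 33 a ratio above 2. Of the 415, 322 were lowest in replicate 1, and their median GC content was 61.6% against 47.1% for all. The 10 largest were CCDC85B, PABPN1, BMP3, PPDPF, SCAND1, LUC7L2, ASS1, WDR90, LRFN1 and C14orf80. CCDC85B had 2.188, 6.41 and 13.6 CPM with a GC content of 67.7%. BMP3, a bone morphogenetic protein, went the other way with 17.3, 11.4 and 6.04 CPM and a GC content of 39.2%. ASS1, with a GC content of 57.4%, was higher in replicate 1, against the direction of GC-rich entries.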

How the data were processed

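Poly(A)-selecting TruSeq libraries were sequenced and the authors deposited unnormalized counts per gene symbol, as whole numbers. Tools named in the submitters' processing notes are bcl2fastq 2.19, Trimmomatic, Bowtie2, Picard, featureCounts and DESeq2, with build hg38. Settings, annotation and use of strand: not given in the sources used here. Since Bowtie2 aligns without splitting, reads over exon junctions may be lost, most in genes of short exons. A further 6 columns of values per sample, scaled by the authors, were not used.

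Groups came from sample titles. CPM used TMM factors (0.993 to 1.01) from edgeR 4.0.16 in R 4.3.3, and the coefficient of variation used edgeR's common dispersion, tested on simulated data. TPM was computed from the counts and merged exon lengths of GENCODE release 29, known for 24590 entries (92.8%) with 99.4% of counts. Date-form names stood in 28 entries. Shared sequence means under 50% of 31-base stretches unique; overlapping means at least 50% of exon bases in another entry. Pairs of libraries had a chi-square per degree of freedom of 2.90 to 5.34, more than counting error, so none was a copy of another. This value cannot show whether the cultures were separate. Counting limits cover counting error only.

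The 35 gene lists (791 genes), families and members were chosen with earlier results of these data known. Named genes are the 15 highest in TPM, up to 5 leading members of each list, members without a count, key lists in full and the 10 with the largest ratio between libraries at 5 CPM or more. Other named genes, such as those with trace counts and isoenzyme pairs, were chosen after their values were seen. Alternatives were library totals or DESeq2 1.42.0 size factors, other gene lengths and thresholds, and each library left out. Some genes are not reported here.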

Additional observations from a re-analysis of the deposited data

How the results depend on the processing

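Levels, counts of expressed entries and counts of entries at 0 stayed within 1.5 times, or 1 SD, of the values given under every scaling and with each library left out, except as follows. The share of listed genes that was expressed, 53.5%, was 52.2% when each library had to reach 1 CPM, 55.4% at a threshold of 0.5 CPM and 48.2% at 5 CPM. The share of TPM in the 100 highest entries, 22.6%, was 23.2% with the longest transcript as length, 15.6% without length scaling and 24.2% with the length open to unspliced 50-base reads. For cytosolic ribosomal proteins, 11.8%, the same settings gave 12.5%, 5.16% and 13.1%. The common biological coefficient of variation ranged from 0.0472 without replicate 1 to 0.0885 without replicate 2. Short lists were sensitive to the threshold: at 5 CPM mature B genes had 3, myeloid genes 1, FGF ligands 1 and stromal and liver-type genes 0 expressed, and at 0.5 CPM T cell genes had 4 and NK genes 1. Percentiles of 34 key genes moved by a median of 0.396 (longest transcript), 0.457 (unspliced length) and 1.94 (no length scaling, largest 16.4 for NR3C1). CDK4 over CDK6, LDHB over LDHA and RAG1 over RAG2 held under all 3 lengths. Without length scaling CDK6 exceeded CDK4 and HOXA13 exceeded HOXA5, as given above. PAX5 to EBF1 (0.930 with unspliced length), E2F1 to E2F4 (0.950), BCL2 to BCL2L1 (0.961, against 1.44 with the longest transcript) and ELF1 to LEF1 (0.843 with the longest transcript) changed order, and their libraries overlapped in any case. No paired analysis was possible because 1 group was used. At these depths genes under 0.102 CPM cannot be told from silent ones.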

Other observations

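PCLO, a scaffold of the presynaptic zone in neurons and a very long gene, was among the 15 entries with the most counts, and was singled out after its values were seen. It had 20353, 24341 and 24444 counts in replicates 1, 2 and 3, a mean of 2358 CPM. Per length it had 344 TPM, percentile 96.7, above PAX5 in mean TPM. All of its 31-base stretches are unique to it.

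Among autosomal entries annotated as lincRNA or antisense RNA, the highest by mean TPM was MALAT1, a nuclear RNA found in most cells, at 470 ± 91.2 TPM (SD, n = 3). SNHG8, a snoRNA host gene, was next at 200 TPM. Other noncoding types, such as snoRNA entries, were not ranked here. BLACE, a lincRNA named for its expression in B cell acute lymphoblastic leukemia, had 413, 500 and 680 counts and 72.3 ± 9.87 TPM, percentile 79.3. Outside blood cell programs, the cancer-testis gene SSX6 had 11.5 ± 0.483 CPM while 53 of 59 members of the MAGE, GAGE and SSX families had no count, 23 of them in shared sequence. The protocadherin PCDHGC3, of a family of neuronal adhesion proteins, had 92.8 ± 3.26 CPM, the highest of 53 clustered protocadherins.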
